A study of Mus musculus with 4 samples.

Results

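The clustered protocadherin genes were examined in ATAC-seq peak lists of visceral adipose tissue from CD-1 mice, an outbred stock. In ATAC-seq a transposase cuts open chromatin, and a peak is a stretch where cuts pile up over the local background. The members were all curated RefSeq genes of mm10 on chromosome 18 whose symbol is Pcdha, Pcdhb or Pcdhg followed by a number or a letter. This rule gave 58 genes, set here beside 21000 protein-coding genes of the same annotation. One member, Pcdhgb8, is annotated as a transcribed pseudogene. The 4 libraries came from adipose tissue taken at 8 weeks. Control 1 and control 2 descended from dams injected with sesame oil, and BPA 1 and BPA 2 from dams injected intraperitoneally with 50 mg/kg of bisphenol A, a plasticiser, over embryonic days 7.5 to 13.5. The labels disagree with the text of the study on the generation, so it is not named here, and neither sex nor batch was labelled. The groups held 2 libraries each, and the study's text gives the 4 libraries as 4 mice. The deposited list of BPA 2 carries another replicate number in its name than its label does, and the label was followed. The 4 lists held 72375 to 98060 peaks.

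Clustered protocadherins are cell-surface adhesion proteins best known from neurons, where each cell switches on a few of them by promoter choice and thereby acquires a surface identity. In the alpha and gamma clusters every gene has its own variable exon and promoter, and its transcript is spliced to constant exons that the cluster shares. The beta genes have single coding exons and no shared constant exons. The last genes of the alpha and gamma clusters, called C-type, are expressed more widely than the others, which are called alternate genes. CTCF and cohesin bring distal enhancers to the chosen promoters, and DNA methylation and SMCHD1 are known to hold unchosen promoters silent. Pcdhgc3 is the member best known outside the nervous system.

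The genes lay in order along 912 kb, from the Pcdha1 start site to the last gamma exon, at chr18:36930285-37841873. There were 12 alternate alpha genes, 2 alpha C-type genes (Pcdhac1 and Pcdhac2), 22 beta genes, 12 gamma A genes, 7 gamma B genes and 3 gamma C-type genes (Pcdhgc3, Pcdhgc4 and Pcdhgc5). All were read from the plus strand, and neighbouring start sites were 3779 bp apart at the closest and 7152 bp apart at the median. A promoter peak was a peak that touched the 500 bp on either side of a gene's start site. Peaks were compared between libraries by rank, the place of a peak in its own list by −log10 q-value, as a percentage with 0 as the best, because the q-values themselves grow with depth.

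Most of the clustered protocadherin promoters had no peak. Of the 58 genes, 4 had a promoter peak in control 1 and 11 in control 2, which is 6.90% and 18.97% of them, and 7 had one in BPA 1 and 13 in BPA 2, which is 12.1% and 22.4%. Among all protein-coding genes the share was 62.5%, 61.4%, 64.1% and 67.4% in the same order of libraries. At least 1 library showed a peak at 18 members, or 31.03%, against 69.6% of protein-coding genes. A peak in all 4 libraries was found at 3 members, against 57.9% of protein-coding genes. No peak in any library was found at 40 members, or 69.0%, against 30.4% of protein-coding genes. The remaining 15 members had a peak in 1 to 3 libraries, a pattern that 11.7% of protein-coding genes had, and 8 of these were in exactly 1 library, as were 3.61% of protein-coding genes. The plot of promoter peaks along the gene order shows filled positions in all 3 clusters, with columns filled in every library at C-type genes alone.

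**Figure D1:**
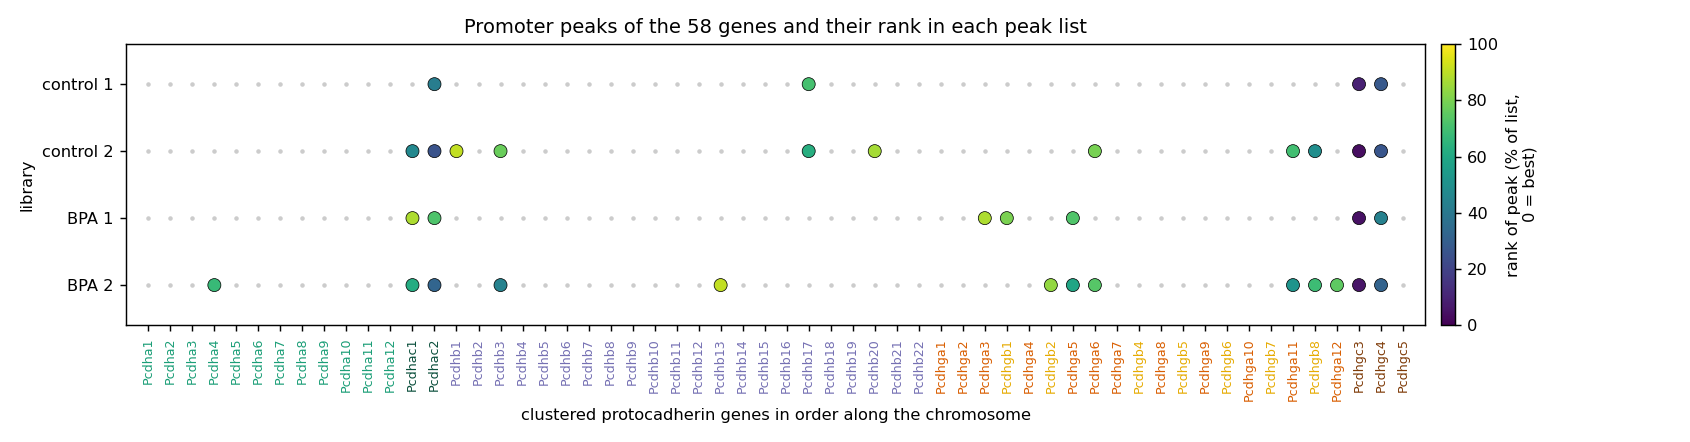
Promoter peaks of the 58 clustered protocadherin genes, in order along the chromosome (x axis), in each of the 4 libraries (y axis). A filled circle is a peak, coloured by its rank in the library's list in percent (0 is the best), and a grey dot is no peak. Pcdhac2, Pcdhgc3 and Pcdhgc4 are filled in all 4 libraries, and Pcdha5 to Pcdha12 in none.

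The C-type genes carried most of the reproducible signal. Of the 5 C-type genes, 3 had a peak in all 4 libraries, Pcdhac1 had one in 3 libraries and Pcdhgc5 in none. Of the 53 alternate genes, none had a peak in more than 2 libraries, 6 had one in 2 libraries, 8 in 1 library and 39 in no library.

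Pcdhgc3, a gamma C-type gene, had the best-ranked promoter peak of all members in every library. Its rank was 9.14% and 3.55% in control 1 and control 2, and 4.56% and 5.61% in BPA 1 and BPA 2. The ranks of the 2 groups overlapped, and in each library the peak ranked better than the median promoter peak of protein-coding genes, which stood at 9.55%, 10.9%, 9.54% and 7.08%. The fold of the summit pile-up over local background was 5.62 and 7.68 in the controls and 11.5 and 9.01 in BPA 1 and BPA 2. Both BPA folds were above both control folds, and so were the library medians over coding promoter peaks, at 6.03 and 6.84 in controls and 10.3 and 9.39 in BPA. The pile-up recovered at the summit, the number of reads stacked there, was 61, 88, 118 and 310, in the order control 1, control 2, BPA 1, BPA 2. The 4 summits lay 8 to 128 bp before the start site, at positions −128, −57, −101 and −8. The merged peak covered chr18:37805827-37808125, which includes the start and part of the variable exon. It also came within 500 bp of a start site of another GENCODE gene, BC037039, so the signal of these start sites cannot be told apart.

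Pcdhgc4, the next gamma gene, had a broad peak in all 4 libraries, between 1493 and 2156 bp wide. Its rank was 27.6% and 26.7% in the controls, 43.6% in BPA 1 and 31.5% in BPA 2, so that both control ranks were better than both BPA ranks. Among protein-coding genes with a peak in all 4 libraries, 18.7% had ranks ordered that way and 40.7% the opposite way. The summits sat at −334 and +170 bp from the start site in the controls and at +882 and +845 bp in BPA 1 and BPA 2, still inside the same broad peak. Counting a promoter peak only where the summit was in the window therefore left the gene with a peak in both controls and neither BPA library.

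Pcdhac2, the last alpha gene, ranked 42.0% and 25.6% in the controls, 72.0% in BPA 1 and 32.3% in BPA 2. The groups overlapped, and the weakest of the 4 peaks was in BPA 1, with a pile-up of 11 reads against 25, 35 and 46 in control 1, control 2 and BPA 2. Pcdhac1, the C-type gene before it, had no peak in control 1 and ranked 46.8% in control 2, 87.5% in BPA 1 and 61.5% in BPA 2. Its peak in BPA 1 rested on 8 reads, where the lowest pile-up of any peak in that list was 6. Pcdhgc5, the last gamma gene, had no promoter peak in any library. Control 2 alone had a peak inside its variable exon but outside the 500 bp window, at chr18:37820446-37820667, with rank 38.6% and 40 reads. The Pcdhgc5 window of 1001 bp held 17 CpG dinucleotides, the fewest of the C-type genes, where Pcdhac1, Pcdhac2, Pcdhgc3 and Pcdhgc4 held 50, 69, 68 and 42. The part of CpG number in the missing peak was not tested.

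**Figure D2:**
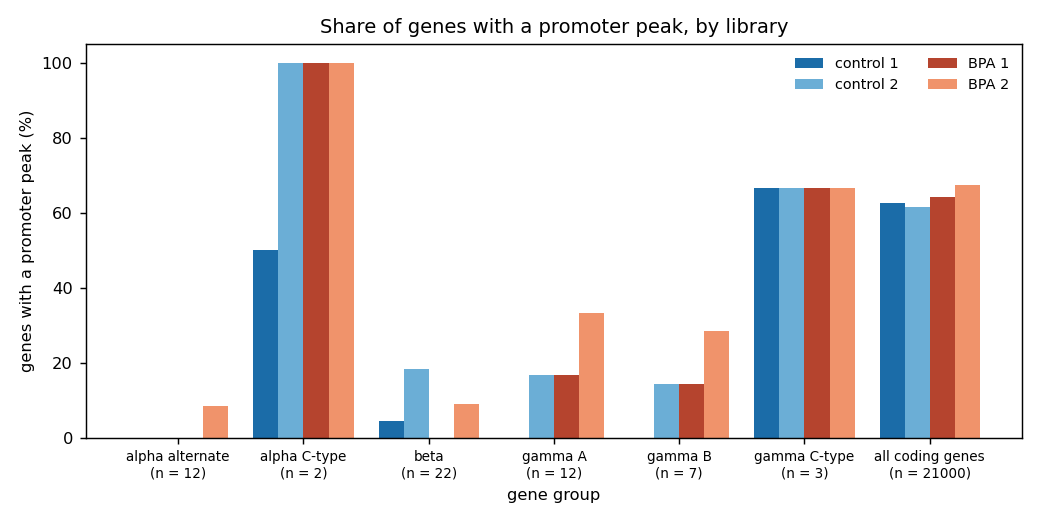
Share of genes with a promoter peak (y axis, percent) in each library (bar colour), for the 6 groups of clustered protocadherin genes and for all 21000 protein-coding genes (x axis, with the number of genes). The alternate groups stay at or below 33.3% in every library, and the coding genes lie between 61.4% and 67.4%.

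The alternate alpha genes were the least often marked. Pcdha4 was the only 1 of 12 with a promoter peak, in BPA 2 alone, at rank 67.3% with a pile-up of 22 reads. Its summit lay 488 bp past the start site, inside the variable exon. Pcdha1 to Pcdha3 and Pcdha5 to Pcdha12 had none. The annotated start of Pcdha1 and of Pcdha8 to Pcdha12 is the first base of the coding sequence, so their windows need not be centred on the start of transcription. Among all members, 9 of the 57 with a coding sequence had such a start. A read-through RefSeq gene that runs on to the gamma constant exons starts 41 bp from Pcdha4, and similar ones start 6 bp from Pcdha6 and 9 bp from Pcdha7, so the promoter of these members cannot be told apart from theirs.

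Among the 22 beta genes, 5 had a promoter peak somewhere. Control 1 had 1 of them and control 2 had 4, while BPA 1 had 0 and BPA 2 had 2. Pcdhb17 was the only member with a peak in both controls and in neither BPA library, a pattern found at 0.433% of protein-coding genes. Its rank was 70.5% in control 1 and 62.7% in control 2, with 14 and 17 reads at the summit. Pcdhb3 ranked 77.0% in control 2 and 44.0% in BPA 2, the best rank of any alternate gene in any library. Pcdhb1 and Pcdhb20 had a peak in control 2 only, at ranks 90.8% and 86.7%, and Pcdhb13 in BPA 2 only, at 90.7%. The Pcdhb20 peak reached the window only with its edge, since its summit lay 677 bp past the start site. From Pcdhb4 to Pcdhb12, 9 neighbouring genes were without a peak in any library, the longest such run in the locus.

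Of the gamma alternate genes, 5 of 12 gamma A and 3 of 7 gamma B genes had a promoter peak in at least 1 library. Per library the gamma A count was 0, 2, 2 and 4 and the gamma B count 0, 1, 1 and 2, in the order control 1, control 2, BPA 1, BPA 2. As shares these were below the beta genes in both controls, at 0% and 0% against 4.55% in control 1 and 16.7% and 14.3% against 18.2% in control 2, and above them in both BPA libraries. Pcdhga5 was the only member with a peak in both BPA libraries and neither control, a pattern found at 2.5% of protein-coding genes. Its rank was 72.3% in BPA 1 and 58.8% in BPA 2, with 10 and 25 reads at summits 185 and 176 bp past the start site. The lowest pile-up called was 9 reads in each control, 6 in BPA 1 and 11 in BPA 2. These values are not scaled for depth, and the lowest local background was 2.85 and 2.70 reads in the controls, 1.16 in BPA 1 and 3.80 in BPA 2. The part of depth in the absent peaks at Pcdhga5 and Pcdhb17 was not tested. Pcdhga11 ranked 69.8% in control 2 and 51.7% in BPA 2, Pcdhga6 ranked 79.6% and 73.7%, and the pseudogene Pcdhgb8 ranked 48.9% and 68.7% in the same libraries. The merged Pcdhga11 peak also came within 500 bp of a start site of the GENCODE gene Gm26672. The remaining 4 were in 1 library each: Pcdhga3 at 87.5% and Pcdhgb1 at 79.8% in BPA 1, and Pcdhgb2 at 84.0% and Pcdhga12 at 75.0% in BPA 2. The 8 genes from Pcdhga7 to Pcdhgb7 had no peak in any library.

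Most alternate peaks ranked in the worse part of their lists, the exceptions being Pcdhb3 in BPA 2 at 44.0% and Pcdhgb8 in control 2 at 48.9%. The median rank of alternate peaks was 70.5% in control 1 (1 peak), 77.0% in control 2 (7 peaks), 79.8% in BPA 1 (3 peaks) and 68.7% in BPA 2 (9 peaks), and their median width was 284, 363, 271 and 553 bp. The widest alternate peak, Pcdhga12 in BPA 2, was 1198 bp. The C-type peaks had median widths of 1493, 985.5, 1201 and 1693 bp in the same order. The libraries shared few of the alternate genes. Control 2 and BPA 2 had 4 in common, Pcdhb3, Pcdhga6, Pcdhga11 and Pcdhgb8, which is 4 of 7 in control 2 and 4 of 9 in BPA 2. Control 1 and control 2 had 1 in common, BPA 1 and BPA 2 had 1, and no other pair of libraries had any. Control 2 and BPA 2 belong to different groups and were the 2 libraries with the most peaks, 88911 and 98060.

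The question between the groups was whether descendants of bisphenol A-injected dams differed from controls in the number of open clustered protocadherin promoters. Control libraries averaged 7.5 ± 4.95 genes (SD, n = 2), and BPA libraries averaged 10 ± 4.24 genes (SD, n = 2). The difference of 2.5 genes was smaller than the SD of either group. An exact permutation test of the library labels on the difference of means gave p = 0.667 (two-sided). With 2 libraries against 2 the smallest p this test can give is 0.333. Without control 1 the difference was −1, and without BPA 2 it was −0.5. The depth of the libraries differed, with the lowest local background of any peak at 2.85 and 2.70 reads in the controls, 1.16 in BPA 1 and 3.80 in BPA 2. Promoter peaks of markers of other cell types were counted in the same libraries. They stood at 2, 2, 5 and 5 of 5 endothelial markers in control 1, control 2, BPA 1 and BPA 2. Macrophage markers stood at 1, 1, 3 and 3 of 4, and progenitor and fibroblast markers at 4, 4, 5 and 5 of 5. These 3 lists were higher in both BPA libraries. So were the neuron markers, at 3, 3, 4 and 5 of 7. The share of all protein-coding genes was higher there too, at 62.5%, 61.4%, 64.1% and 67.4% in the same order. Mesothelial markers stood at 3, 2, 2 and 1 of 4, with the groups overlapping. Their part in the counts of protocadherin promoters was not tested. A library is bulk tissue, so a peak in few cells and a weak peak in many cells cannot be told apart. The adipocyte markers, which check the tissue, had promoter peaks at 7 of 7 in each library.

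Because clustered protocadherins are chiefly neuronal, nerve markers were counted as well. Neuron markers had peaks at 3, 3, 4 and 5 of 7 genes, with Rbfox3 and Elavl3 at none in any library, and Schwann cell markers at 4, 3, 3 and 4 of 5, with Sox10 at none. The non-clustered protocadherins, which are single genes outside these clusters, had a peak at 10, 10, 9 and 9 of 12. For listed genes outside the clusters the best of all annotated start sites counted, whereas the 58 members had 58 start sites in all. Of these 12 genes, 8 had a peak in all 4 libraries. Pcdh1 had none in any library. Pcdh12, known from endothelial cells, had one in both BPA libraries only, at ranks 20.8% and 19.9%, a pattern found at 2.5% of protein-coding genes. Pcdh11x and Pcdh15 had one in both controls only, a pattern found at 0.433%. Those peaks were weak, at ranks 83.7% and 70.4% for Pcdh11x and 66.6% and 83.6% for Pcdh15. The genes for CTCF, cohesin subunits and loaders, SMCHD1, DNA methyltransferases and other regulators of the clusters had a peak at 15, 15, 14 and 15 of 15. The exception was Setdb1, a histone methyltransferase gene, in BPA 1. The signalling partners of protocadherins, which are kinases, actin regulators and Ctnnb1, had a peak at 8 of 8 in each library. Neighbouring genes were open as well. Zmat2 before the alpha cluster, Taf7 between beta and gamma and Diaph1 past gamma each had a peak in all 4 libraries, and Slc25a2, also between beta and gamma, had none.

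Across the whole locus, peaks were sparse in the alpha and beta clusters and dense at the gamma end. Between the Pcdha1 start and the last gamma exon, control 1 had 13 peaks and control 2 had 25, while BPA 1 had 14 and BPA 2 had 22. Controls averaged 19 ± 8.49 peaks (SD, n = 2) and BPA libraries 18 ± 5.66 peaks (SD, n = 2), a difference smaller than either SD. The exact permutation test on the difference of means gave p = 1 (two-sided). Per 100 kb the libraries held 1.43, 2.74, 1.54 and 2.41 peaks, against 3.28, 3.53, 2.89 and 3.91 over chromosomes 1 to 19. The beta cluster alone held 0.390, 2.34, 0 and 0.780 peaks per 100 kb and the gamma cluster 3.33, 5.55, 4.44 and 7.22. In the 100 kb before alpha no library had a peak, while the 100 kb past gamma, most of it the gene Diaph1, held 10, 12, 11 and 12. The share of 31-base words found once in the genome differed along the locus too, at 66.05% before alpha, 77.1% in alpha, 78.8% in beta, 93.1% in gamma and 96.6% past gamma, and its part in the number of peaks was not tested. The map of peaks along the locus shows the rise towards the gamma end in each library.

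**Figure D3:**
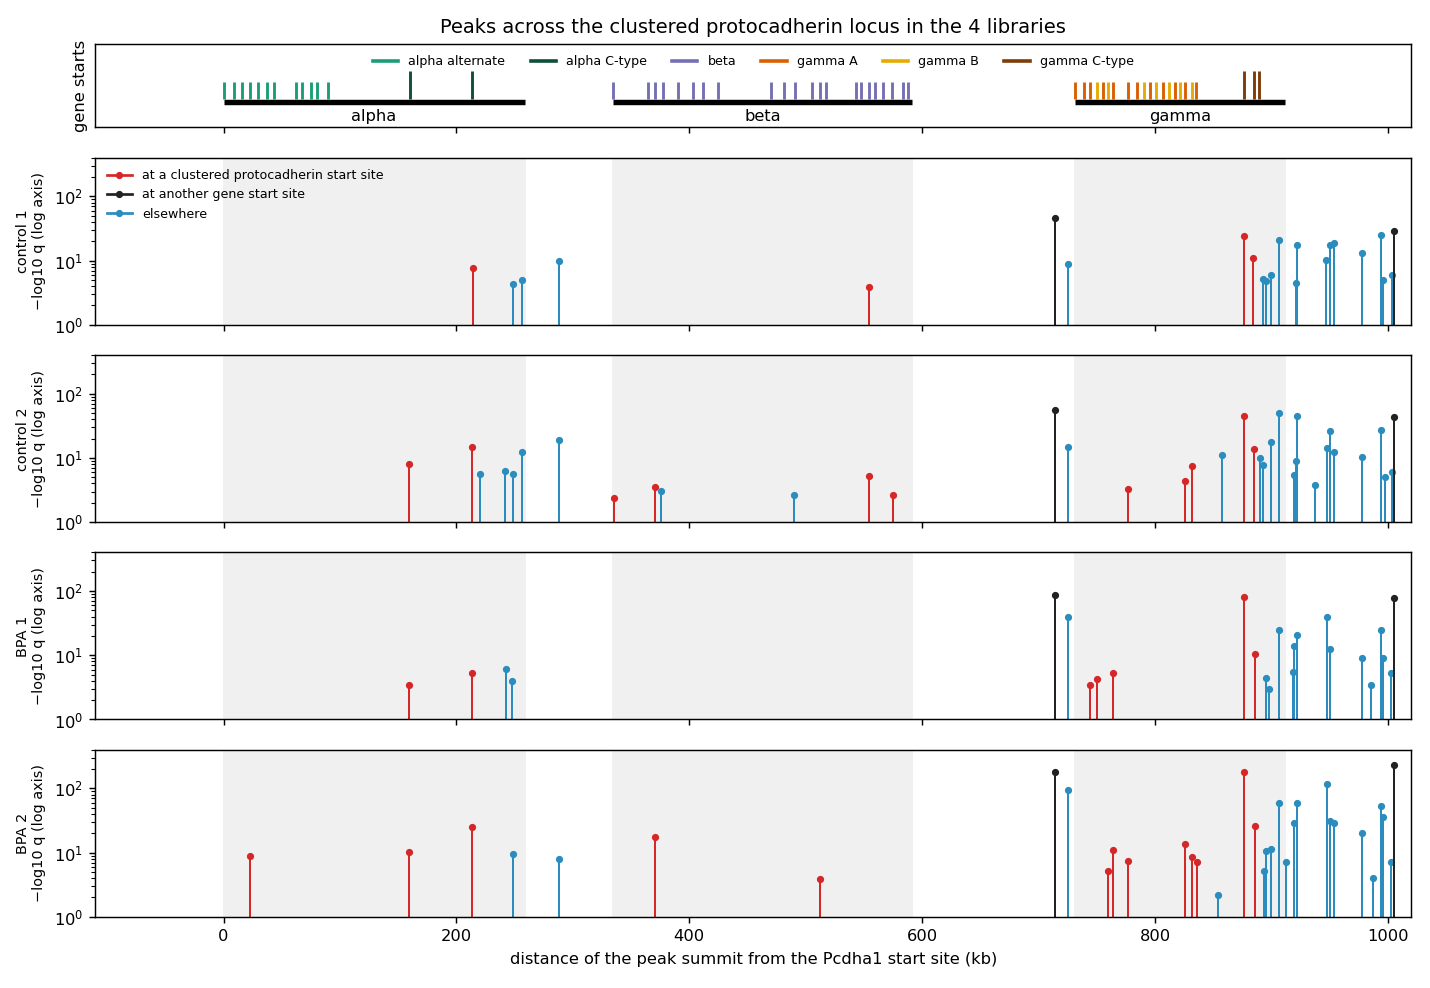
Peaks across the clustered protocadherin locus in each library, by distance of the summit from the Pcdha1 start site (x axis, kb) and −log10 q-value (y axis, log axis). The top row shows the start sites of the 58 genes by group, and grey bands mark the 3 clusters. No peak falls in the 100 kb before alpha, and the highest peak at a clustered protocadherin start site in every library is that of Pcdhgc3, near 876 kb. In control 2 the gamma region near 906 kb is higher, at 50.5 against 45.7.

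Between and past the clusters, peaks away from any RefSeq start site marked candidate distal elements, though some lay within 500 bp of a GENCODE start site. After peaks of the 4 libraries were merged where they overlapped, 31 such distal regions lay from 100 kb before alpha to 100 kb past gamma, and 9 of them had a peak in all 4 libraries, or 29.0%, against 20% of distal regions over the genome. By segment, the regions in all 4 libraries were 1 of 4 in the alpha cluster, 0 of 1 between alpha and beta and 0 of 2 in the beta cluster. They were 1 of 1 between beta and gamma, 1 of 9 in the gamma cluster and 6 of 14 past gamma, these 6 inside Diaph1. The share of 29.0% therefore rested largely on the flank past gamma and not on the clusters themselves. No distal region was in the 100 kb before alpha, and the 2 in the beta cluster were in control 2 alone.

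The gamma region at chr18:37835180-37837186 was the widest of the 9, at 2007 bp. It lay in the intron before the last gamma constant exon, 5.69 kb before the end of the cluster. Its rank was 11.8% and 2.72% in the controls, 18.9% in BPA 1 and 14.9% in BPA 2, better than every member promoter except Pcdhgc3 in each library and, in control 2, better than Pcdhgc3 too. The region between beta and gamma, at chr18:37655211-37656134, lay 11.5 kb past the Taf7 start and 6103 bp before the Pcdhga1 start, within 500 bp of a start site of the GENCODE noncoding gene 3222401L13Rik. It ranked 35.6% and 25.3% in the controls and 12.3% and 10.5% in BPA 1 and BPA 2. Both BPA ranks were better than both control ranks there, an order found at 21.6% of the distal regions of the genome with a peak in every library.

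Past gamma the 6 regions in all 4 libraries lay 9.98, 35.96, 38.3, 66.3, 82.4 and 91.6 kb beyond the last gamma exon. The one at chr18:37923609-37924927 ranked 9.02% and 10.4% in controls and 19.1% and 16.3% in BPA 1 and BPA 2, so that both control ranks were better. The one at chr18:37877210-37878460 ranked 30.3% and 26.4% in controls and 12.2% and 8.77% in BPA 1 and BPA 2, the opposite order. The one at chr18:37850941-37852770 ranked 15.4%, 3.77%, 22.6% and 14.8%, so the groups overlapped. Over all 9 regions, both BPA ranks were better at 2, both control ranks at 5, and the groups overlapped at 2. Over the genome both control ranks were better at 31.7% of such regions and both BPA ranks at 21.6%.

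**Figure D4:**
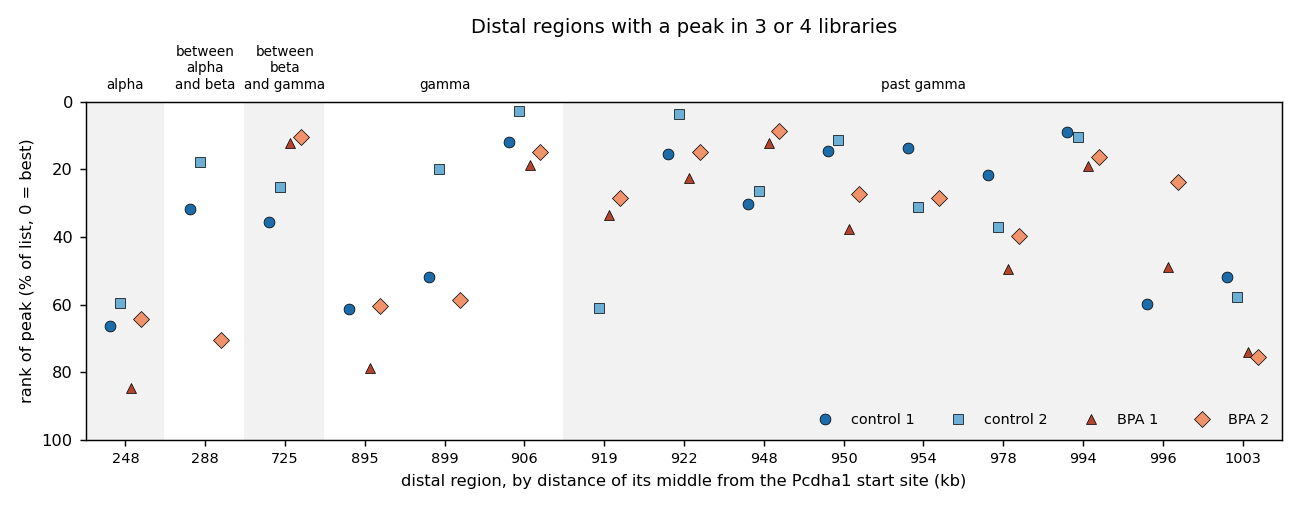
Rank of the peak in each library (y axis, percent of the list, 0 at the top is the best) for the 15 distal regions with a peak in 3 or 4 libraries, in order by distance from the Pcdha1 start site (x axis, kb, not to scale). The region at 906 kb, in the gamma cluster, ranks between 2.72% and 18.9%, and the alpha region at 248 kb between 59.6% and 84.6%.

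In the alpha cluster the region in all 4 libraries, at chr18:37178020-37179354, was weak. It lay in the intron before the last alpha constant exon, within 500 bp of a start site of the GENCODE gene Gm10544. Its ranks were 66.4%, 59.6%, 84.6% and 64.4%. The region between alpha and beta, at chr18:37217427-37218490, lay 29.1 kb past the end of alpha. It ranked 31.7% in control 1, 17.7% in control 2 and 70.4% in BPA 2, and had no peak in BPA 1, the shallowest library. These 2 regions fell outside the naming rule and were chosen after their values were seen. Regions in both controls and neither BPA library numbered 2, against 5.86% of distal regions over the genome. One covered part of the last alpha constant exon, at chr18:37186560-37187522, with ranks 59.0% and 31.1%, and the other lay in a gamma intron at chr18:37822476-37822928, with ranks 57.9% and 47.9%. The number in both BPA libraries and neither control was 0, against 10% over the genome.

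The sequence of the 1001 bp promoter windows was then described, a feature the choice of members did not use. Median G+C was 45.2% for members and 55.7% over 26032 coding start sites, while the median ratio of observed to expected CpG was 0.573 and 0.579. The number of CpG dinucleotides had a median of 29.5 in members and 44 over coding start sites, and by group it was 36.5 in alternate alpha, 15 in beta, 30.5 in gamma A and 37 in gamma B genes. Windows were therefore also compared at like CpG number, in 5 bins of all coding start sites. In the bin of 30 to 55 CpG, 86.7% of coding start sites had a peak in at least 1 library, against 9 of 27 members. In the bin of 11 to 29 the share was 45.8% against 7 of 25 members, in the bin of 0 to 10 it was 14.2% against 0 of 4, and in the bin of 56 to 77 it was 96.5% against 2 of 2. Of the 27 members with 30 to 55 CpG, 11 were alternate alpha genes, and 1 of those had a peak. These shares are descriptions, since members resemble each other in sequence.

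**Figure D5:**
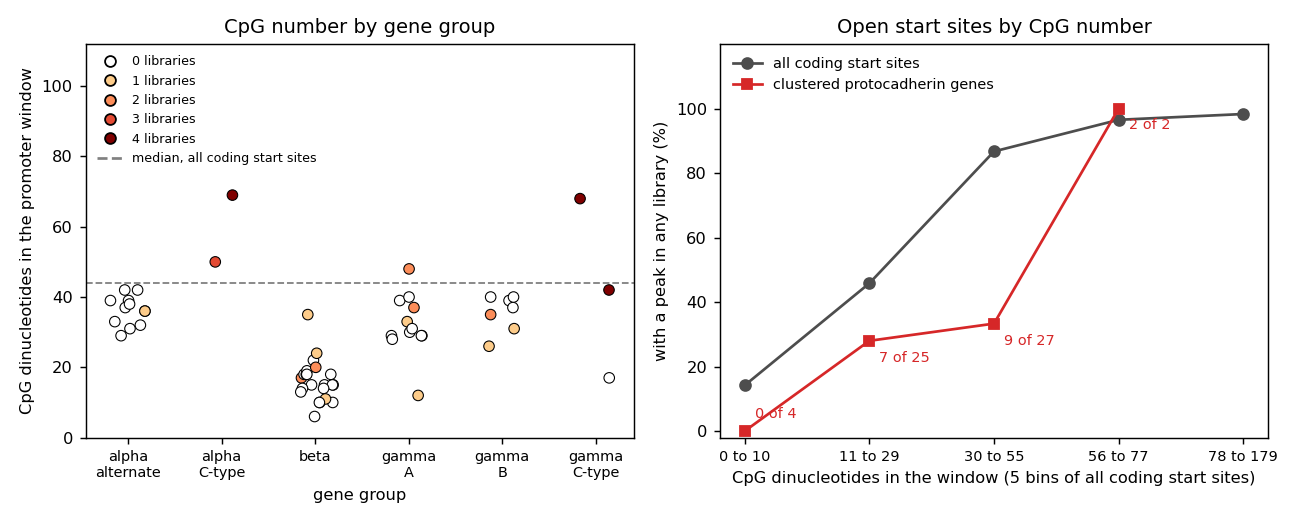
Left, number of CpG dinucleotides in the 1001 bp promoter window (y axis) of each clustered protocadherin gene by group (x axis), coloured by the number of libraries with a promoter peak, with the median of all coding start sites (44) as a dashed line. Right, percentage of start sites with a peak in any library (y axis) by CpG number (x axis, 5 bins), for all coding start sites and for members. In the bin of 30 to 55 CpG the members stand at 33.3% and all coding start sites at 86.7%.

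Only uniquely mapped reads were kept by the authors, and some members resemble each other closely, so the share of 31-base words found once in mm10 on the assembled chromosomes was computed for each window. It was 78.0% at the median in alternate alpha genes and 79.7% in gamma B genes, against 97.7% in gamma A, 100% in beta and 100% in C-type genes. Of 38 members over 90% unique, 17 had a peak in at least 1 library, or 44.7%, and of the other 20 members 1 had. Within the more unique members the share per library was 10.5%, 28.9%, 18.4% and 31.6%, in the order control 1, control 2, BPA 1, BPA 2. Reads are longer than these words, so the uniqueness of whole read pairs is higher. The part of mapping in these counts was not tested.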

How the data were processed

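ATAC-seq (Omni-ATAC) was done on visceral adipose tissue, with 2 control and 2 BPA libraries grouped by their labels. The authors trimmed reads with Trim Galore and mapped them separately to mm10 and to a CD-1 genome with Bowtie2 2.3.5.1. They kept unique reads and removed duplicates with SAMtools. The lists were read here in mm10 coordinates. The paper reports that transcription factor motifs in peaks differing between the 2 controls overlapped single-base variants among CD-1 mice more often than random regions. The part of such variants in peaks found in few libraries was not tested. They called peaks per library with MACS2 2.2.7.1, without pooling. Other peak-calling options are not given in the sources used here. Per library they deposited 1 list with a score (the −log10 q-value times 10, as a whole number), the fold of the summit pile-up over local background (a ratio), the −log10 p-value, the −log10 q-value and the summit position. All peaks passed a q-value of 0.05.

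Start sites came from curated RefSeq transcripts on GRCm38 (mm10), 31601 in all. A promoter peak overlapped 500 bp either side of a start site by 1 bp or more. The gene's best peak by −log10 q-value was used. As the lists give no read totals, the pile-up of each peak was worked out from the deposited fold and p-value, and the solver and overlap counts were tested on simulated data. Distal regions were merged peaks that touched no promoter window of any RefSeq gene. Group means were compared with a two-sided exact permutation test over libraries. Genes are not replicates, so no test was run over them. Named were the C-type genes, members open in all 4 libraries or in both libraries of 1 group alone, the best-ranked member per library, and up to 10 distal regions by the same criteria and worst rank, and the remaining members with a peak were given for completeness. Python 3.11.15, numpy 2.4.6, scipy 1.17.1, pandas 2.3.3 and matplotlib 3.10.9 were used. The alternatives changed the peak threshold, the number of peaks, the promoter window, the start sites, peak merging and the libraries. The members and lists were chosen with earlier results of these data known. Sequences are not reported here.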

Additional observations from a re-analysis of the deposited data

How the results depend on the processing

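Of 107 alternative values, 88 stayed within the limit set for them, 17 moved and 2 reversed. For the difference between groups the limit was its direction and its test, not its size. The difference between groups, 2.5 genes, became −1 without control 1 and −0.5 without BPA 2, and ranged from −1 to 6 over the libraries left out, with 6 without control 2 and 5.5 without BPA 1. It was 1.5 with equal numbers of peaks and with a window of 1000 bp. With the best 20000 peaks of each library it was 0, with means of 1 gene in each group, 1 gene in every library, 3 distal regions in every library, 0 genes in both libraries of the BPA group alone and 0 of the control group alone, and a mean of 4 locus peaks in each group. These follow from the lower number of peaks kept. A −log10 q-value of at least 5 gave a control mean of 4.5 and 0 genes in both controls alone. With the summit in the window, 1 gene was in every library and 2 in both controls alone. Keeping only peaks shared by both replicates of a group, an alternative added after seeing the data, gave means of 4 and 4. Over the libraries left out, the control mean ranged from 4 (without control 2) to 11, and genes in both BPA libraries alone from 1 to 2 (without control 2, when Pcdhac1 joins Pcdhga5). Start sites of GENCODE vM21, also added after seeing the data, moved no count by more than its limit. The 40 genes without a peak ranged from 40 to 44 over the libraries left out. No paired analysis was possible because shared replicate numbers mark no shared animal or batch and the counts come from no fitted model. A peak list says nothing of signal under its threshold. The lowest pile-up called was 6 reads in BPA 1, the shallowest library, and the part of depth in absent peaks was not tested.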
